A study of Mus musculus with 6 samples.

Results

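The S100 calcium-binding proteins S100a1, S100a4, S100a6, S100a10, S100a11 and S100a13 and the annexins Anxa1, Anxa2, Anxa5 and Anxa6 were examined on arrays labelled wild-type (WT) and CD98hc KO. They were selected on S100a4, which lies among the largest decreases of the same comparison, so their values below are a description and carry no p-value. The rule takes every probe set whose only gene symbol on the platform is one of these 10 genes, which gave 12 of the 45141 probe sets, 1 for each gene except Anxa6, which had 3. The array as a whole named 17097 genes.

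The cells were fibroblasts derived from mouse embryonic stem cells, either WT or lacking CD98hc, the heavy chain of several amino acid transporters that is encoded by Slc3a2. Both genotypes were grown in the same complete high-glucose medium, with serum, non-essential amino acids, glutamine and β-mercaptoethanol. RNA was amplified and hybridised to Affymetrix expression arrays of the mouse genome, 3 for each genotype, with replicate numbers 1, 3 and 5. All values are log2 signals made by the authors with RMA (Robust Multichip Average), so a difference of 1 is a 2-fold change. Neither the labels nor the methods state how many clones each genotype stands for or whether the 3 arrays came from separate cultures, so errors and p-values cover only how far these arrays vary, in part perhaps for technical reasons.

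The labels need care before any direction is read. The Slc3a2 probe set gave WT-labelled values of 10.64, 10.67 and 10.51 against 11.65, 11.57 and 11.54 with the KO label, a difference of 0.98 (SE 0.075; adjusted p = 0.00018, limma) against the direction of a deletion. Whether these probes lie in the deleted stretch is not known here, so directions are given by label throughout. Of 10 fibroblast markers, measured by 13 probe sets, Col1a1 (11.35 to 12.66) and Vim (12.32 to 12.60 over 3 probe sets) were bright under the WT label, while Thy1, Pdgfra and Lum, at 4.11 to 4.70, lay close to the median of the 23 probe sets for nonspecific background (4.23) there. On the KO-labelled arrays 7 of these 13 probe sets were called lower and 0 higher (adjusted p under 0.05 and over 2-fold, limma). Over all probe sets 7.43% were called lower and 6.35% higher. All 12 probe sets of the 9 pluripotent stem cell markers measured were called higher, as were 7 of 8 probe sets of 6 epithelial markers. Pou5f1, the gene of OCT4, reached 11.92 to 12.07 against 4.64 to 4.94. The log2 of the summed level of that list was 9.93 to 10.0 under the WT and 14.7 to 14.9 under the KO label. That of the fibroblast list was 14.5 to 14.9 and 12.6 to 13, and that of the epithelial list 8.16 to 8.31 and 11.6 to 12.1. Such a sum adds probe sets that share no common scale and mainly follows the brightest. Under the KO label Vim still gave 10.39 to 11.14, where Col1a1 gave 5.75 to 6.52. The part of these cell type markers in the results below was not tested, and in such bulk RNA fewer cells of a type and less RNA per cell cannot be told apart. The 9 hybridisation controls were lower on both replicate 3 arrays than on the other 4, by 1.25 on average. No label or method names a batch that sets them apart, so this is a split read from the controls, called the control split below.

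S100 proteins are small proteins that expose a binding surface when calcium fills their EF-hand loops, and most act as dimers on a client protein inside or outside the cell. Annexins are the complementary case, since calcium lets their core repeats dock onto negatively charged membranes. The families meet in fixed pairs, of which S100a10 with Anxa2 is the best known, and these complexes serve in membrane repair, endocytosis and the surface activation of plasminogen. S100a4 is widely used as a marker of fibroblasts and mesenchymal cells.

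The start regions of these genes, which lie on different chromosomes, are shown first as a description. RefSeq promoter windows (build GRCm38.p6; 250 bases before to 50 bases from the start site on) were matched by symbol for 8 of the 10 genes, S100a10 and Anxa6 having none in the table used. Capitals mark matches, on either strand, to the TATA motif TATAAA, the AP-1 motif TGANTCA, the GC box GGGCGG and the TEAD motif GGAATG. S100a4 (chr3:90603520-90603819, plus strand) and Anxa1 (chr19:20390622-20390921, minus strand) are shown for their TATA motifs, Anxa2 (chr9:69453433-69453732, plus strand) and S100a11 (chr3:93520246-93520545, plus strand) for AP-1 and GC boxes, and S100a13 (chr3:90514185-90514484, plus strand) because its last 204 bases also lie in the window of S100a1, which is read from the other strand.
S100a4: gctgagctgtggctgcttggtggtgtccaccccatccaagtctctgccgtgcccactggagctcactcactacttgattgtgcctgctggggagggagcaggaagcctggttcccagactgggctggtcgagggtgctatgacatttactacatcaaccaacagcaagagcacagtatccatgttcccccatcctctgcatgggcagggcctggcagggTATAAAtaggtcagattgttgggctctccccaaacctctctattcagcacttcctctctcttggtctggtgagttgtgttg
Anxa1: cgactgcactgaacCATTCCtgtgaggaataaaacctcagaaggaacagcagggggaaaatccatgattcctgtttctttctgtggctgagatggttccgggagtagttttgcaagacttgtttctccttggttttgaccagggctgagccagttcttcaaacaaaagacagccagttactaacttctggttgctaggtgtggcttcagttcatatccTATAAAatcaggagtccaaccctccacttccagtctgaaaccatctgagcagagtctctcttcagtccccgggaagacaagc
Anxa2: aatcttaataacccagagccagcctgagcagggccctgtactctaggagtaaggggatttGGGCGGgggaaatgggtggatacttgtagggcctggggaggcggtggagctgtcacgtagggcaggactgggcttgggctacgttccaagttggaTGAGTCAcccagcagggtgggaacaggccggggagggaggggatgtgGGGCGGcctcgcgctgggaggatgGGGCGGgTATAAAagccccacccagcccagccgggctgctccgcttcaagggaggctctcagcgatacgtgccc
S100a11: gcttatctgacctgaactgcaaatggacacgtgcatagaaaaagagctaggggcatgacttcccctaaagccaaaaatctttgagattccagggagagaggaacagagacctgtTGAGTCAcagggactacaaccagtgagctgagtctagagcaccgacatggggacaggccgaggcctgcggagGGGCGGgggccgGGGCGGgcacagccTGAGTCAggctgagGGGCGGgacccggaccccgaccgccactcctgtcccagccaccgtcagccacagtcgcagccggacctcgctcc
S100a13: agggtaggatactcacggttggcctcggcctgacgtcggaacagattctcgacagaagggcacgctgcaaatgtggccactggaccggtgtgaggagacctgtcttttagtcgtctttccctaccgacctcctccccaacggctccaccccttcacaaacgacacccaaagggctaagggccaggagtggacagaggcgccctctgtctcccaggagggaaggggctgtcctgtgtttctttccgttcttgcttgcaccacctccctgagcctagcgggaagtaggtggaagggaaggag

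The first base of the TATA motif lay at −31 relative to the start site in S100a4, −32 in Anxa1 and −17 in Anxa2, so 3 of the 8 windows held it, against 13.6% of the 32851 windows in the table. AP-1 was matched in S100a11 (−136 and −38) and Anxa2 (−95), that is in 2 of 8 against 7.81% of all windows. The same 2 genes held 3 GC boxes each, a motif present in 35.7% of all windows, and Anxa1 alone matched the TEAD motif, present in 14.7%. None of the 13 matches overlapped another. S100a4 had 2 CG dinucleotides and Anxa1 had 3, below the median of 7 for all windows, as did S100a6 with 6, while S100a11 had 15, S100a13 14, Anxa2 13, Anxa5 16 and S100a1 11. With 8 windows these are descriptions of the letters and say nothing of factors bound there.

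All 12 probe sets had a lower mean on the KO-labelled arrays, with differences from −7.02 to −0.57 and a median of −2.68, where the median over all 45037 tested probe sets was 0.00. A call required an adjusted p below 0.05 together with more than a 2-fold change, and 10 of the 12 were called lower, at least 1 for each gene, and 0 higher. Over the whole array 7.43% of probe sets were called lower and 6.35% higher. In 11 of the 12 all 3 KO-labelled values lay below all 3 WT-labelled values, which held for 22.2% of all probe sets. Since the choice of genes used this contrast, nothing is read from these counts.

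**Figure D1:**
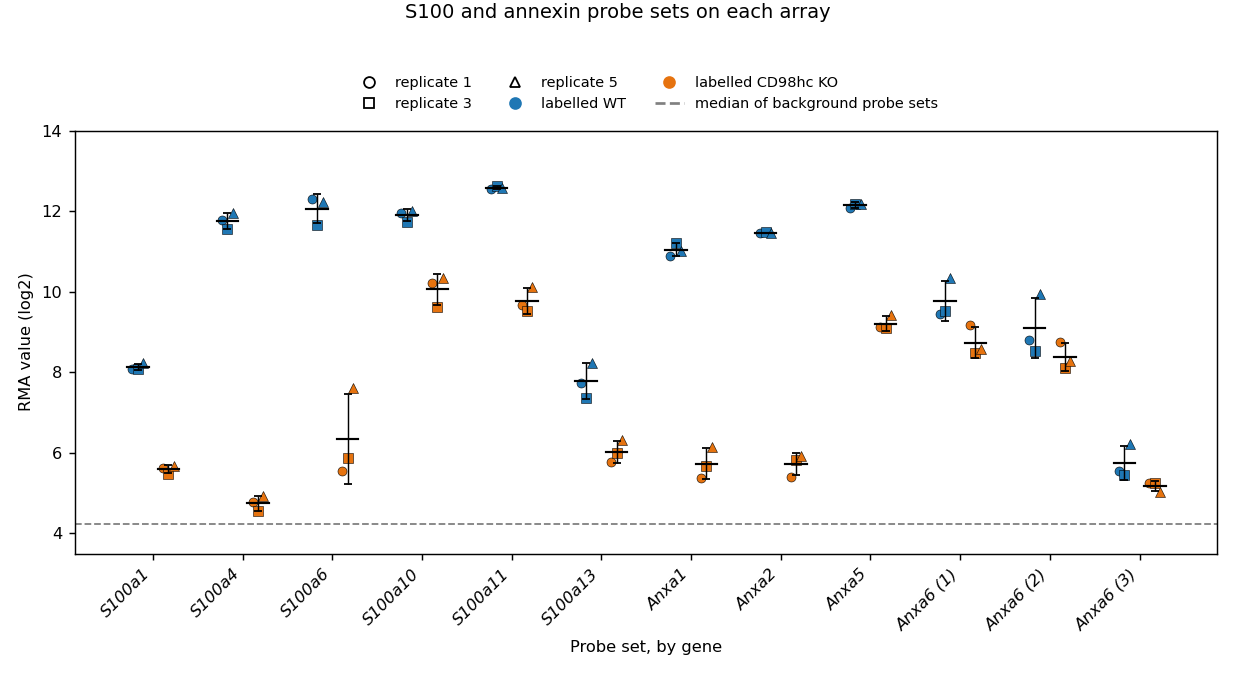
RMA log2 value (vertical axis) of each of the 12 probe sets (horizontal axis, by gene; Anxa6 has 3) on the 3 WT-labelled (blue) and 3 KO-labelled (orange) arrays, with symbols for the replicate number, black bars for mean ± SD (n = 3) with the background median (4.23) dashed. The labels are furthest apart for S100a4 and overlap only in the second Anxa6 probe set, and S100a10, S100a11 and Anxa5 stay above 9 under both labels.

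S100a4, a calcium sensor that binds non-muscle myosin and is made by motile mesenchymal cells, showed the widest separation. It gave WT-labelled values of 11.77, 11.57 and 11.95 against 4.78, 4.55 and 4.92 with the KO label. The lowest WT-labelled value was 6.65 above the highest KO-labelled one. The difference was −7.02 (SE 0.14), a 129-fold lower signal and the rank 2 from the bottom of 45037 probe sets. Its mean under the KO label (4.75) was within 1 of the background median, so the difference is a low estimate. The background probe sets themselves ranged from 3.28 to 8.32. The KO-labelled means of S100a1 (5.59), Anxa2 (5.72), Anxa1 (5.73), S100a13 (6.02) and S100a6 (6.34) lay inside that range. Their differences may therefore be low estimates too.

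S100a6, which binds the ubiquitin ligase cofactor Cacybp and is abundant in proliferating fibroblasts, gave 12.30, 11.65 and 12.24 under the WT label. Under the KO label it gave 5.55, 5.87 and 7.61, so replicate 5 stood well above the other two. The SD of these 3 arrays was 1.11, against a median of 0.12 and a 95th percentile of 0.40 for all probe sets. The difference was −5.72 (SE 0.54), and −6.35 without KO replicate 5.

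Anxa2, which bridges membranes and actin and holds S100a10 in a heterotetramer, had nearly the same value on each WT-labelled array (11.46, 11.48 and 11.46). The KO-labelled arrays gave 5.40, 5.83 and 5.93, well below them. The difference was −5.75 (SE 0.14), a 53.7-fold lower signal. S100a10, which differs from its relatives in having lost calcium binding, gave 11.96, 11.73 and 12 and then 10.21, 9.62 and 10.35. Its groups did not overlap either, but the difference was −1.84 (SE 0.20), 3.57-fold, and the signal stayed above 9 on each KO-labelled array. For this pair the 95% interval of the difference was −6.09 to −5.41 for Anxa2 and −2.32 to −1.36 for S100a10. Signals of different probe sets are not on a common scale, so this compares changes and not amounts of the partners.

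Anxa1, an inhibitor of phospholipase A2 signalling that also acts outside the cell on formyl peptide receptors, gave WT-labelled values of 10.89, 11.21 and 11.02 against 5.37, 5.68 and 6.14 with the KO label. The groups were 4.75 apart at their nearest values, and the difference was −5.31 (SE 0.20), 39.7-fold. Its 95% interval was −5.79 to −4.83. S100a11, which binds the N-terminal tail of Anxa1, gave 12.55, 12.62 and 12.58 against 9.67, 9.52 and 10.12. The difference was −2.81 (SE 0.16), 7.03-fold, with an interval of −3.19 to −2.43.

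Anxa5, which binds phosphatidylserine and is used as a probe of dying cells, gave 12.07, 12.19 and 12.19 under the WT label. The KO-labelled values were 9.12, 9.09 and 9.42, and the difference of −2.94 (SE 0.11) was close in size to that of S100a11. S100a1, a regulator of calcium cycling that is known best from muscle, gave 8.08, 8.07 and 8.22 against 5.62, 5.47 and 5.67. Its difference was −2.54 (SE 0.083), and its SDs, 0.08 and 0.10, were below the median SD of all probe sets under either label. S100a13, which takes part in the release of Fgf1 and Il1a by a route that bypasses the Golgi, gave 7.74, 7.36 and 8.24 against 5.77, 6.0 and 6.31. Its difference was −1.76 (SE 0.24), and WT replicate 3 came within 1.05 of KO replicate 5.

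Anxa6, an annexin with a doubled core that organises cholesterol-rich membrane, was the weakest of the 10 and its probe sets did not separate alike. The first gave 9.44, 9.53 and 10.34 with the WT label against 9.17, 8.47 and 8.57 with the KO label, a difference of −1.03 (SE 0.29), with the nearest arrays 0.27 apart. The second gave 8.81, 8.54 and 9.95 against 8.76, 8.10 and 8.27, so the groups overlapped, and the difference was −0.72 (SE 0.38, 95% interval −1.64 to 0.20). The third was dim, with 5.56, 5.44 and 6.22 against 5.24, 5.24 and 5.03 and a difference of −0.57 (SE 0.21). WT replicate 5 was the highest array in all 3. Without it the differences shrank to −0.75, −0.30 and −0.33. The first was then no longer called, nor was it without WT replicate 3 (−1.16), KO replicate 3 (−0.90) or KO replicate 5 (−0.95).

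Within a label the same arrays tended to lie high over these genes. KO replicate 5 was the highest of the 3 KO-labelled arrays in 9 of the 12 probe sets, all but those of Anxa6, where over all probe sets this array was the highest in 27.9% and over those called lower in 31.1%. WT replicate 5 was the highest WT-labelled array in 7 of the 12, against 31.3% over all probe sets and 44.0% over those called lower. Replicate 3 was the lowest of its label in 7 of 12 under either label. The same 2 arrays were the highest of their label for the fibroblast markers, WT replicate 5 in 8 and KO replicate 5 in 10 of 13 probe sets, and each was also highest of its label in 6 of 12 for the pluripotency markers. This pattern was looked for after the values were seen, the probe sets share the same arrays, and it was not tested.

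**Figure D2:**
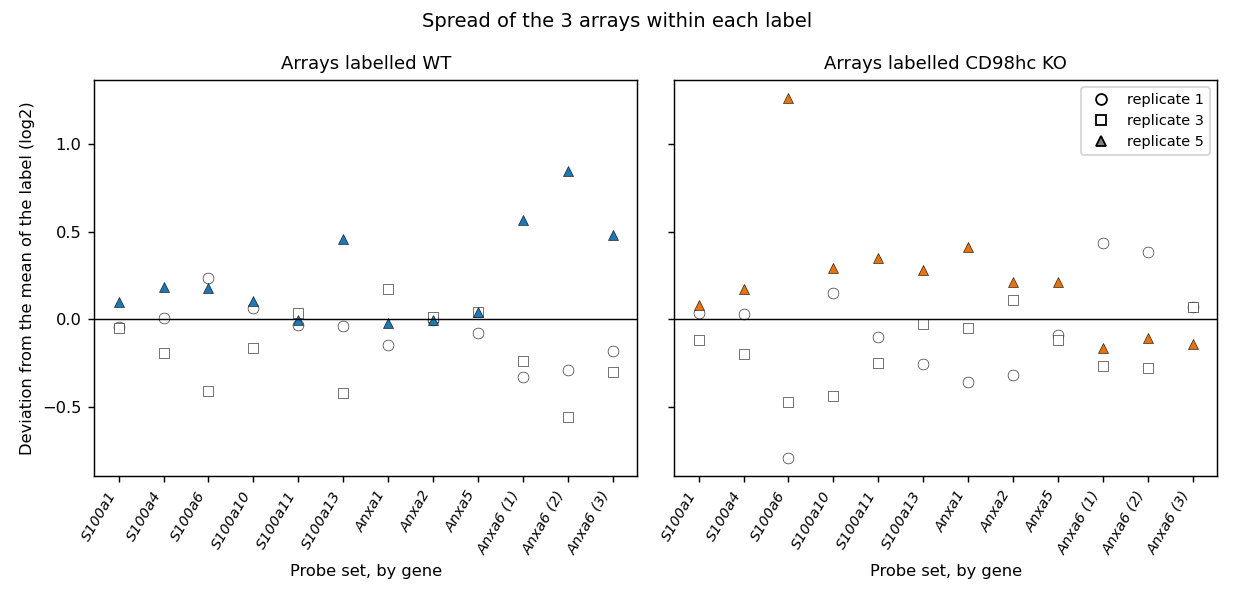
Deviation of each array from the mean of its label (vertical axis, log2) for the 12 probe sets (horizontal axis), on the WT-labelled (left, blue) and KO-labelled (right, orange) arrays, with replicate 5 as filled triangles and replicates 1 and 3 as open symbols. KO replicate 5 lies above 0 for every probe set except those of Anxa6, most of all for S100a6, and WT replicate 5 lies highest for Anxa6.

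Other listed genes of both families, which the rule did not use, were tested with limma over all 45037 probe sets. Of the 10 other S100 genes listed 8 were measured, by 10 probe sets, and 1 was called lower and 0 higher (2 and 0 at an unadjusted p under 0.05), with a median difference of −0.04. Over all probe sets 7.43% were called lower, and 19.7% were lower and 21.4% higher at that unadjusted p, so the count called lower is near that share. Among the 10 probe sets 5 were near the background signal under both labels and had little room to fall. The 1 called lower was S100a3, a cysteine-rich member known from the hair cuticle. Its WT-labelled values were 6.98, 7.27 and 7.36 against 4.34, 4.58 and 4.55 with the KO label. It fell by 2.71 on the log2 scale (SE 0.12; adjusted p = 2.3e-05, limma) to near the background median. S100a5 was dim under both labels (means 4.99 and 4.33), and its difference of −0.66 (SE 0.083; adjusted p = 0.0014, limma) did not reach 2-fold. S100a16 (0.21), S100g (−0.19) and S100b (−0.12) had adjusted p-values of 0.19, 0.15 and 0.25 (limma). For S100a16 and S100b this was the probe set of the larger difference. Their other ones, near background under both labels, differed by 0.08 and 0.10. S100a8 and S100a9, the calgranulins of myeloid cells, gave means of 4.68 and 5.43 under the WT and 4.68 and 5.48 under the KO label. Of 6 leukocyte markers 0 were called by limma and 0 had an unadjusted p under 0.05 (13.8% and 41.1% over all probe sets). Ptprc, which encodes CD45, lay at 3.58 to 3.95 on all arrays. Cd68 (5.96 to 7.35) and Csf1r (5.62 to 6.28) were brighter and differed by 0.64 and −0.23.

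Of the 8 other annexins listed 7 were measured, by 11 probe sets, all with a negative difference and a median of −0.56. Among the 11, 4 were near background under both labels, and over all 45037 probe sets 22030 differences were negative. Called lower were 2 of the 11 and higher 0 (6 and 0 at an unadjusted p under 0.05), where over all probe sets 7.43% were called lower and 19.7% were lower at that unadjusted p. Anxa4, an annexin of epithelial and secretory cells, was the 1 gene called, by both of its probe sets. The brighter gave 11.02, 11.14 and 11.13 with the WT label against 8.99, 9.04 and 8.75 with the KO label and fell by 2.17 (SE 0.097; adjusted p = 2.3e-05, limma). The other, whose identifier marks probes that may bind further transcripts, fell by 1.44 (SE 0.064; adjusted p = 2.2e-05, limma). The ubiquitous Anxa7 had differences of −0.74 (SE 0.14) and −0.65 (SE 0.14) with adjusted p-values of 0.0077 and 0.015 (limma), and Anxa9 one of −0.86 (SE 0.062; adjusted p = 0.00014, limma). These were below the 2-fold limit. The larger of the Anxa8 differences was −0.56 (adjusted p = 0.064, limma). Anxa11, which links RNA granules to lysosomes, differed by −0.18 with a 95% interval of −0.78 to 0.41, inside that limit.

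**Figure D3:**
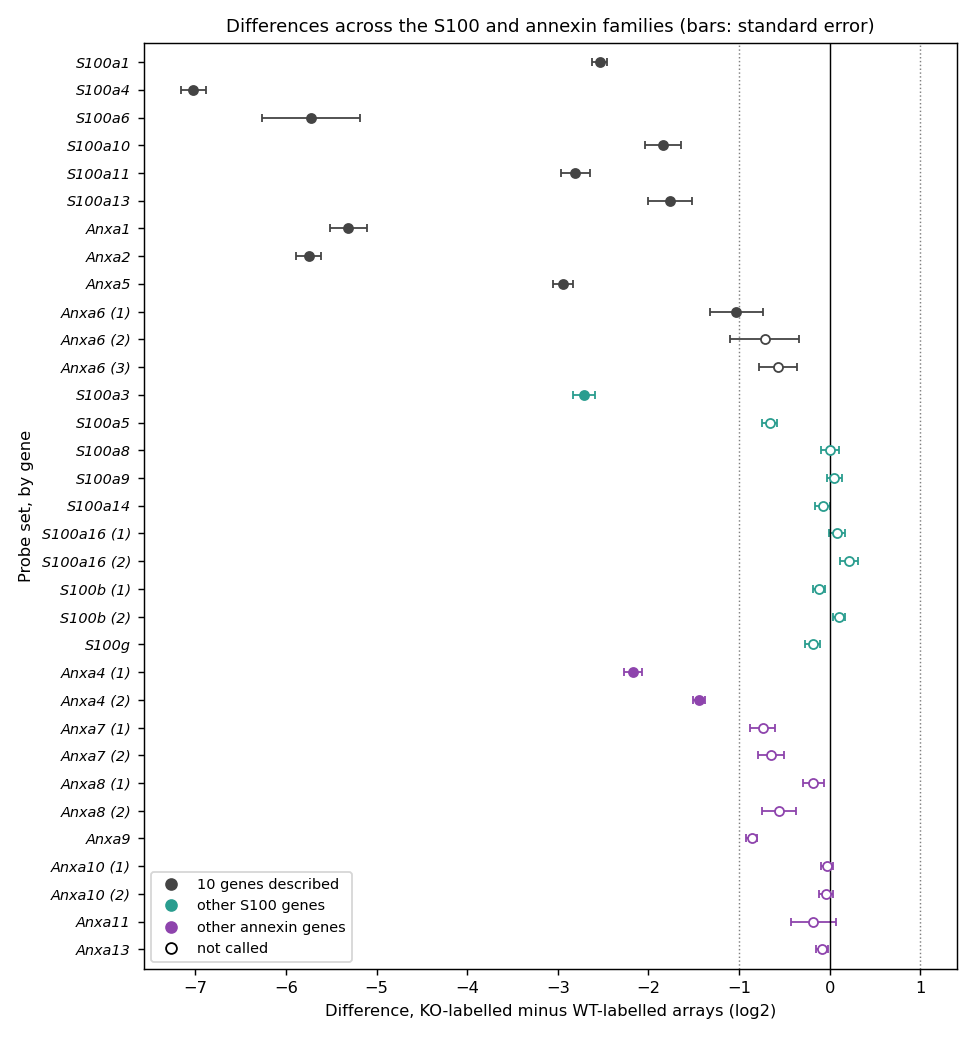
Difference between KO-labelled and WT-labelled arrays (horizontal axis, log2, bars ± SE from limma, 3 arrays per label) for the probe sets of the 10 genes (black), the other S100 genes (green) and the other annexins (purple), with filled symbols for probe sets called and dotted lines at a 2-fold change. S100a3 and Anxa4 are the other family genes called lower, and the remaining ones lie within 2-fold.

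On mouse chromosome 3 the S100 genes stand in a row, and genes with a large difference and dim genes alternated along it. In the RefSeq order, S100a1 (−2.54) and S100a13 (−1.76) lie head to head, with the overlapping start windows shown above. S100a14 (−0.08; adjusted p = 0.57, limma) and S100a16 come next and were dim under both labels, with WT-labelled means of 4.89 and 5.40. S100a3 (−2.71), S100a4 (−7.02), S100a5 (−0.66) and S100a6 (−5.72) follow, so the dim S100a5 lies between the genes with the largest S100 differences. S100a8 and S100a9, further along, had differences of −0.00 and 0.05 (adjusted p = 0.98 and 0.74, limma). Between S100a9 and the pair S100a11 and S100a10 the table lists 56 genes, many of them of the skin barrier. S100a7l2 (0.13), an S100 gene outside the list of other S100 genes, is among them. Of these 35 were measured, by 40 probe sets, of which limma called 0 in either direction (13.8% over all probe sets) and 2 had an unadjusted p under 0.05 (41.1% over all probe sets). Their differences ran from −0.99 to 1.31 with a median of −0.03. Many of these genes, such as Flg (means 3.60 and 3.58), were near background under both labels, where a decrease could hardly be seen. This stretch was chosen by position.

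**Figure D4:**
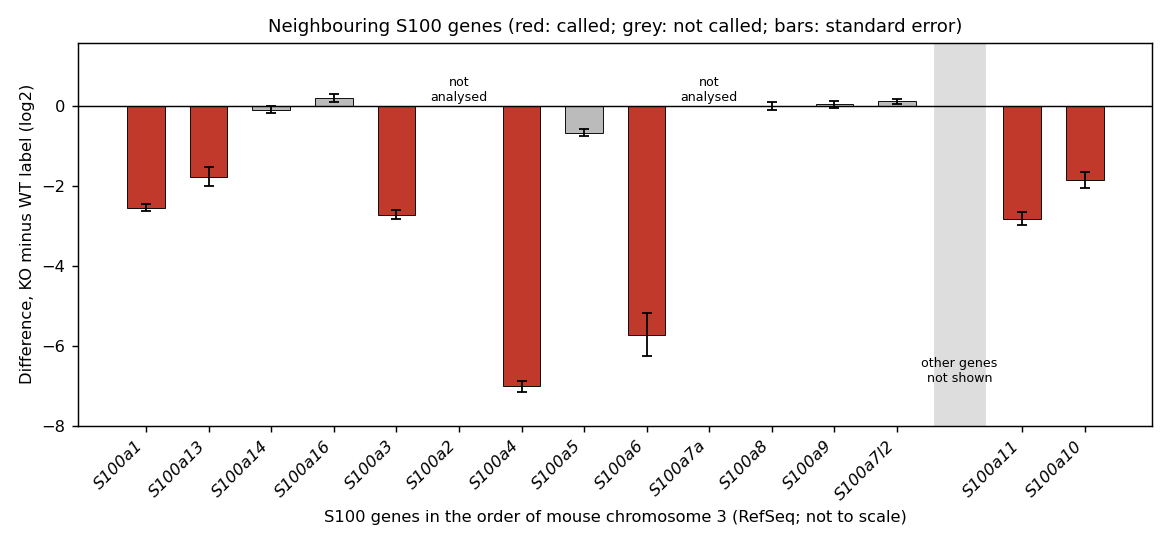
Difference between KO-labelled and WT-labelled arrays (vertical axis, log2, bars ± SE from limma) of the S100 genes in their order on mouse chromosome 3, not to scale, with the probe set of the largest difference for S100a16, red for genes called and grey for genes not called. S100a5 (−0.66) stands between S100a4 (−7.02) and S100a6 (−5.72), and S100a8 and S100a9 stand near 0.

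Clients and receptors of these proteins were taken from a list of 20 genes, of which 18 were measured, by 36 probe sets. Limma called 5 genes lower and 2 higher, in 5 and 3 probe sets (13.9% of the 36 were called lower), and the median difference was 0.06. Over all probe sets 7.43% were called lower and 6.35% higher, so the 3 of 36 called higher are near the background. Ahnak, a giant scaffold that binds the S100a10 and Anxa2 complex, gave WT-labelled values of 12.06, 12.08 and 12.19 against 7.76, 7.59 and 8.77 with the KO label in its brightest probe set. That probe set fell by 4.07 (SE 0.30; adjusted p = 0.00015, limma), with KO replicate 5 again the highest of its label, while the others of Ahnak were dimmer and ranged from −0.86 to 0.07. Plat, the tissue plasminogen activator whose action S100a10 promotes at the cell surface, fell by 3.57 (SE 0.17; adjusted p = 2.8e-05, limma), from a mean of 8.21 to one near background (4.64), and its other probe set, near background under both labels, differed by −0.23.

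Pla2g4a, the cytosolic phospholipase A2 that Anxa1 restrains, gave 8.69, 9.29 and 8.64 against 4.44, 4.65 and 4.38. It fell by 4.38 (SE 0.19; adjusted p = 1.9e-05, limma), so this enzyme and its inhibitor were lower on the same arrays. Both listed targets of S100a4 had a probe set called lower. Ppfibp1, a liprin, fell by 2.70 (SE 0.091; adjusted p = 7.3e-06, limma) in its brightest probe set, while its dimmer ones, at −0.55 and −0.14, were not called. Myh9, the heavy chain of non-muscle myosin IIA, fell by 1.55 (SE 0.25; adjusted p = 0.0037, limma). Both genes called higher are S100a10 binders. Dlc1, a tumour suppressor, gave 8.24, 8.31 and 9.17 with the WT label against 11.45, 11.13 and 11.30 with the KO label, and rose by 2.72 (SE 0.25; adjusted p = 0.00039, limma), while its dimmer probe set differed by 0.85 and was not called. Hltf, a chromatin remodeller, rose by 1.15 (SE 0.17; adjusted p = 0.003, limma) and 1.03 (SE 0.28; adjusted p = 0.032, limma) in 2 probe sets, while the remaining one was at background. The smaller of these lost its call without WT replicate 1, WT replicate 5, KO replicate 1 or KO replicate 3, with replicates 1 and 5 alone and with median centring, and ranged from 0.77 to 1.28 over the settings tried.

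Among the genes not called, Ryr2, a calcium release channel bound by S100a1, differed by 0.96 (SE 0.15; adjusted p = 0.0038, limma) in 1 probe set. That probe set was near background under the WT label (mean 4.81), and the other of Ryr2 differed by 0.29 (adjusted p = 0.066, limma). Dysf, which acts with annexins in membrane repair, differed by −0.91 (SE 0.34; adjusted p = 0.087, limma). The Dysf values were 6.0, 6.40 and 7.39 under the WT label, with replicate 5 the highest as for Anxa6. Atp2a2, the calcium pump of the endoplasmic reticulum, differed by up to 0.48 (adjusted p = 0.19, limma) and Fgf1, the cargo of S100a13, by up to 0.46 (adjusted p = 0.03, limma). Cacybp, the partner of S100a6 (named after its values were seen), was bright under both labels (11.06 and 11.21) and differed by 0.15 with a 95% interval of −0.10 to 0.40.

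**Figure D5:**
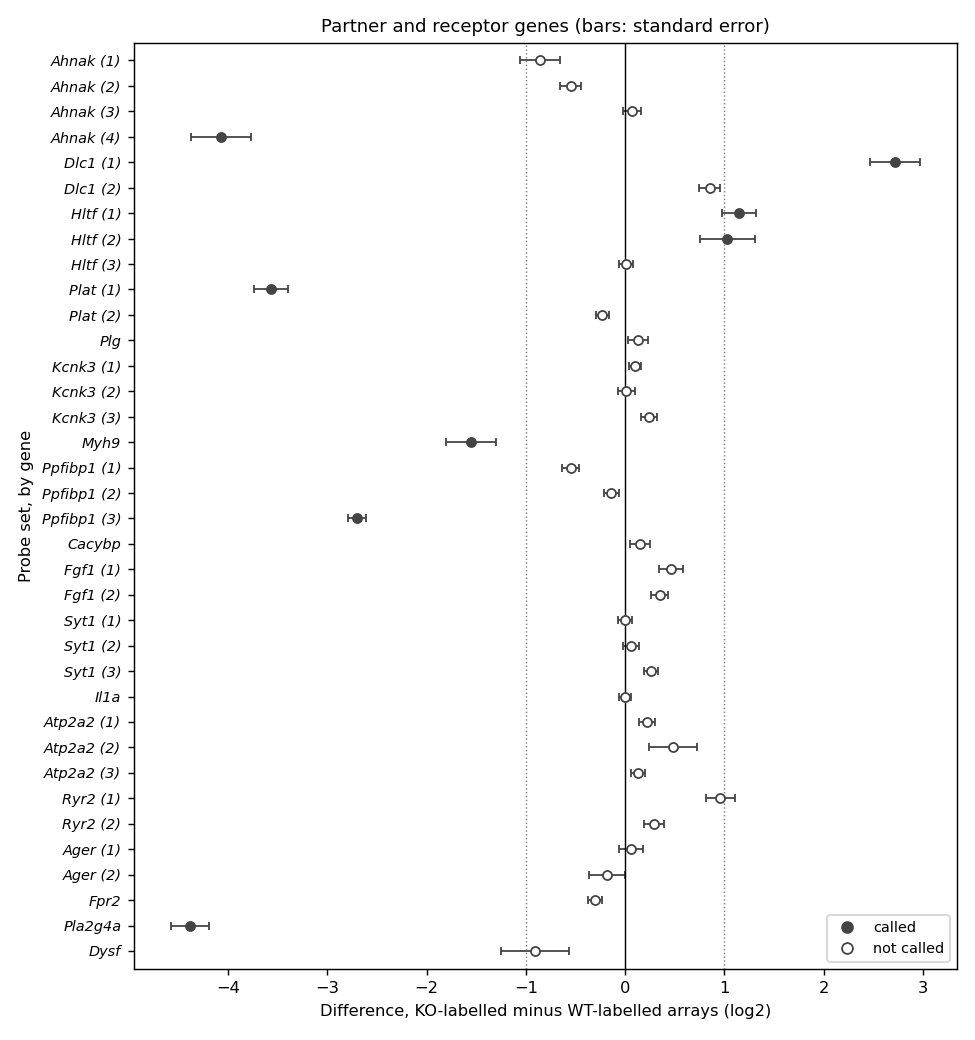
Difference between KO-labelled and WT-labelled arrays (horizontal axis, log2, bars ± SE from limma, 3 arrays per label) of each probe set of 18 genes for partners, clients and receptors, with filled symbols for probe sets called and dotted lines at a 2-fold change. Ahnak, Plat, Pla2g4a, Ppfibp1 and Myh9 have a probe set called lower, Dlc1 has 1 and Hltf 2 called higher, and probe sets of 1 gene differ in size.

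The profile of S100a4 over the 6 arrays was set against those of other named genes, each profile centred on its own mean. Genes with provisional symbols were left out, and each gene entered with its nearest probe set. The 5 nearest were Cd44 (root mean square difference 0.236 on the log2 scale), the hyaluronan receptor, Cav1 (0.261), the coat protein of caveolae, Tm4sf1 (0.309), a small membrane protein of spreading cells, and the collagens Col5a2 (0.325) and Col6a1 (0.386). All of them were near background on the KO-labelled arrays, with means of 4.16 to 5.21. Tm4sf1 was the 1 probe set with a larger decrease than S100a4. None was an S100 gene or an annexin, and over 2 groups of 3 arrays such likeness mainly reflects the size of the difference.

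The differences of the 12 probe sets kept their sign in 11 other settings. These included the control split as a covariate, the 4 arrays of replicates 1 and 5 alone and each array left out. In this balanced design a covariate or block cannot change a difference. Where the groups do not overlap, as in 11 of the 12, leaving out arrays cannot reverse its sign. The kept signs are therefore a description. S100a4 ranged from −7.11 to −6.91, Anxa2 from −5.85 to −5.59, Anxa1 from −5.51 to −5.13, and S100a10 from −1.98 to −1.62. On the replicate 3 arrays alone, 1 per label and with no test, S100a4 differed by −7.02 and S100a6 by −5.78. Of the 10 called probe sets, only the first of Anxa6 lost its call in any of these settings. The genes were chosen on this contrast and the arrays are the same, so nothing is read from the kept calls. With 3 arrays per label the number of arrays limits the precision.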

How the data were processed

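RNA of the 6 arrays was extracted, amplified, labelled and hybridised by the authors, and the deposited values are log2 signals after RMA (background correction, normalisation between arrays and 1 summary value per probe set), per the labels and the methods, with no version stated. Of 45141 probe sets, 104 controls were left out. Platform annotation gave 1 symbol for 28898 probe sets, several for 551 and none for 15692, and 28689 of the named ones matched RefSeq (GRCm38.p6).

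Groups were taken from the labels. KO-labelled and WT-labelled arrays were compared with limma 3.58.1 (lmFit and eBayes) in R 4.3.3, with Benjamini-Hochberg adjustment over 45037 probe sets. Calls required an adjusted p below 0.05 together with more than a 2-fold change. The study's scan batch, a covariate in its methods, could not be assigned to arrays from the labels and is not in the fit. With 3 arrays per label an exact permutation test cannot go below a p of 0.1. A mean below 5.23, the background median plus 1, was termed near background. The fit was tested on simulated data with known changes.

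The genes and gene lists were chosen with earlier results of these data known. Named are every probe set of the 10 genes, the called genes of each list with up to 4 not called, up to 3 markers per list and the 5 profiles nearest to S100a4, while S100 genes of chromosome 3, Cacybp and the other markers were named outside this rule. S100a2, S100a7a, S100z, Anxa3, Fpr1, Rasa1 and Tdgf1 were not analysed here, nor were protein sequences. Motifs were searched on both strands. The alternatives tried were the replicate number as a block, the control split (replicate 3 against 1 and 5) as a covariate or replicates 1 and 5 alone, quantile normalisation or median centring of the deposited values, a filter on dim probe sets, eBayes with trend and robust, no fold limit, 1 probe set per gene, and each array left out.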

Additional observations from a re-analysis of the deposited data

How the results depend on the processing

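Whether the replicate numbers pair the arrays is not stated, and the correlations of their deviations were mixed. Same-numbered arrays gave 0.057 for replicate 1, 0.558 for replicate 3, the highest found, and 0.152 for replicate 5. WT replicate 5 correlated better with KO replicate 1 (0.31) than with its own number, while WT replicate 3 with KO replicate 1 gave −0.394. With the replicate number as a block, 9 in place of 10 of the 12 S100 and annexin probe sets were called lower, and 3350 lower and 2863 higher over all probe sets. The probe set lost was the first of Anxa6, which was also lost with replicates 1 and 5 alone (−1.02) and with quantile normalisation (−0.98), while leaving out 1 array gave 9 to 10 calls. As the genes were chosen on this contrast, these calls are a description only. All 132 differences of the 12 probe sets under other settings kept their sign. With the block or the covariate this was fixed in advance, as it was with arrays left out for the 11 whose groups do not overlap. Median centring moved the median of all probe sets by −0.07. With no fold limit, 7186 probe sets were called lower and 7563 higher over the array, 2 lower among the other S100 genes, 5 lower among the other annexins, 10 lower and 8 higher among the partner genes, 1 higher among the fibroblast markers and 2 higher among the endothelial markers. With the most variable probe set per gene the array gave 1733 lower and 1585 higher, with the brightest 1515 and 1410, and the other annexins 1 lower with either, since fewer probe sets enter. Of 6 endothelial probe sets limma called 0 higher (3 at an unadjusted p under 0.05), but 1 was with the replicate block, with the control split (replicate 3 against 1 and 5) as a covariate, with the filter on dim probe sets and with trend and robust, and 0 to 1 when 1 array was left out (1 without KO replicate 5); the cause was not tested. Signals near background, as for S100a4 under the KO label, limit how large a difference can be read.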
